A study of Mus musculus with 4 samples.

Results

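The ribosomal protein genes of mouse type 1 innate lymphoid cells (ILC1s), which stay in tissues and resemble natural killer cells, were followed across 4 RNA sequencing libraries of 2 genotypes. Control libraries 1 and 2 came from Inpp4b flox/flox mice. Libraries 3 and 4, labelled knockout, came from mice that carried Ncr1-iCre on the same Inpp4b flox/flox background, so the floxed alleles were common to all 4. Ncr1-iCre ties the recombinase to Ncr1, which encodes the natural killer receptor NKp46, and Inpp4b encodes a phosphatase of inositol lipids that acts upstream of the kinase AKT. Cells were taken as CD49a+ ILC1s, and the labels name a tissue, liver, only for control library 1. The age, number and pooling of the mice are not given in the sources used here. Members were the protein-coding genes whose symbols are Rps or Rpl followed by a digit, Rplp0 to Rplp2 or Rpsa, without the Rps6k kinases, and they numbered 92 of 40481 genes. The rule uses names and annotation and no measured value.

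Of the 92 members, 46 encode proteins of the large ribosomal subunit and 31 proteins of the small subunit, and these 77 are called canonical below. A further 8 are paralogs, which are second genes for a ribosomal protein (Rpl3l, Rpl7l1, Rpl10l, Rpl22l1, Rpl36al, Rpl39l, Rps27l and Rps27rt). Another 6 are annotated as protein-coding although they are named as pseudogenes, and Rps19bp1 encodes a binding partner of RPS19 and of the deacetylase SIRT1 and is no ribosomal protein. The name pattern also took in 242 pseudogenes and 11 Rps6k genes, which are not members. Sufficient counts for testing were present for 90 of the 92, and Rpl10l and Rpl36-ps4 were too low.

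The ribosome reads messenger RNA with its small subunit and joins amino acids with its large subunit, and each carries its proteins in fixed numbers on ribosomal RNA. Ribosomal protein mRNAs are among the most abundant of a growing cell and begin with a C followed by a run of pyrimidines, the 5′ terminal oligopyrimidine (TOP) tract. Through that tract the kinase mTOR, by way of LARP1, adjusts their translation and stability together. Mammalian ribosomal protein genes have left many processed pseudogenes, which are intronless copies of their mRNAs scattered through the genome.

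Of the sequence features searched, a TOP-like run was the most frequent in the canonical genes. In the RefSeq promoter windows of the GRCm38.p6 build, which run from 250 bases before to 50 bases after the start, a C followed by at least 7 pyrimidines occurred on the gene's strand between 10 bases before and 50 bases after the start in 42 of the 57 canonical genes that had a window (73.7%), and in 19.4% of all 17492 coding genes. A window was found for 66 of the 92 members. The following 30-base stretches hold that run, in capitals, on the gene's strand, for members chosen among those that have it: Rps12, Rps21 and Rpl39 of high fold change, Rps27 and Rps18 of high abundance, and Rps2, Rpl10a and Rpl35 of low fold change. The windows of Rpl24 and Rpl5, also of low fold change, held no such run.
Rps12, chr10:23787181-23787210 (minus strand): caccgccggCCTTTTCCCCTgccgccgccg
Rps21, chr2:180257399-180257428 (plus strand): ggaggcacgagctaCTTCCTTTCTgcgctc
Rpl39, chrX:37085173-37085202 (minus strand): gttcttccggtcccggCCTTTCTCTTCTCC
Rps27, chr3:90213631-90213660 (minus strand): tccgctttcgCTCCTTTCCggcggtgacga
Rps18, chr17:33955647-33955676 (minus strand): tcacttccgCTCTCTCTTCCacaggaggcc
Rps2, chr17:24720083-24720112 (plus strand): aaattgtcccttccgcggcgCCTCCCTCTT
Rpl10a, chr17:28328572-28328601 (plus strand): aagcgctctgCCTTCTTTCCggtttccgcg
Rpl35, chr2:39005115-39005144 (minus strand): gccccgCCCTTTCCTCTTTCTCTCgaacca
The runs were not compared with the fold changes.

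Upstream of the start the canonical genes shared shorter words. Searched on both strands of the same windows, CCGGAAG, the core bound by ETS-family factors such as GABPA, occurred in 24 of 57 canonical genes (42.1%) and in 12.9% of all coding genes. The word TCTCGCGA occurred in 11 of 57 (19.3%) and in 1.59% of all. AAGATGG, the core bound by YY1, occurred in 15.8% of canonical and 7.18% of all coding genes, and GGGCGG, the core bound by SP1, in 61.4% and 49.2%. TATAAA occurred in 10.5% of canonical and 14.8% of all coding genes. The following 60-base upstream segments are shown for members with a fold change above the median of the canonical genes, with the word or its reverse complement in capitals (CCGGAAG in Rpl19, Rpl37 and Rps7, TCTCGCGA in Rpl26).
Rpl19, chr11:98026650-98026709 (plus strand): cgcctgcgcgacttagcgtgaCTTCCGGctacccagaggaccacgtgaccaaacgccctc
Rpl37, chr15:5116553-5116612 (plus strand): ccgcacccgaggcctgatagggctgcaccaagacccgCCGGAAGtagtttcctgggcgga
Rps7, chr12:28635954-28636013 (minus strand): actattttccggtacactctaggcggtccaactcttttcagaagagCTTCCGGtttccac
Rpl26, chr11:68901506-68901565 (plus strand): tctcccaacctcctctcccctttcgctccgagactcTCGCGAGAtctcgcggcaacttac
A match describes the letters in these windows only, and binding was not measured here.

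Library totals ran from 42380840 to 54878210 counts. The libraries of each group differed far beyond counting noise, where chi-square over degrees of freedom was 98.55 for the controls and 89.61 for libraries 3 and 4, and all 4 were kept as samples. The labels do not place them in separate animals. The p-values therefore cover only the spread between libraries, which may be technical. Inpp4b itself was at 78.7 and 106.5 CPM (counts relative to library size after TMM scaling) in controls and at 142.5 and 86.0 CPM in libraries 3 and 4 (log2 fold change 0.30, SE 0.28, edgeR Benjamini-Hochberg adjusted p = 0.828). Its counts sum the whole gene and do not test the deletion of some of its exons. The presence of Ncr1-iCre and a loss of Inpp4b cannot be told apart in this design, and directions refer to the labels of libraries 3 and 4. The ILC1 and natural killer cell markers, Itga1 (CD49a) among them, had counts in all 4 libraries, with summed levels of 11800 and 12680 CPM in controls against 11470 and 12640 CPM in libraries 3 and 4. Single markers differed more than the sum, and edgeR called 0 of the 12 tested. Without overlap of the groups 3 lay higher (25%, against 19.5% of all genes) and 4 lower (20.8% of all genes). Ncr1, the gene whose name the driver carries, was at 1672 and 1772 CPM against 1202 and 1077 CPM (log2 fold change -0.60, SE 0.14, adjusted p = 0.28 by edgeR). DESeq2 called Ncr1 alone of the 12, lower (adjusted p = 0.0149), as did edgeR without a filter on low counts (adjusted p = 0.00322). That unfiltered fit called 299 genes higher and 264 lower of 23999, where edgeR with the filter called 21 higher and 2 lower of 14863.

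Ribosomal protein transcripts took a larger share of the counts in both libraries labelled knockout than in either control. The members held 4.86% and 5.23% of all counts in control libraries 1 and 2, and 5.84% and 5.68% in libraries 3 and 4. The means were 5.05% ± 0.26 and 5.76% ± 0.12 (SD, n = 2 each), a ratio of 1.14. Large-subunit genes held 2.67% and 2.92% in controls and 3.22% and 3.16% in the libraries labelled knockout, and small-subunit genes 2.09% and 2.23% against 2.51% and 2.43%. For both subunits the groups did not overlap, and control library 1 was the lowest. In bulk RNA a different share of cells of some type and a different amount of RNA per cell cannot be told apart. No test was made of these sums, since 2 libraries against 2 cannot go below a two-sided exact permutation p of 0.333.

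**Figure D1:**
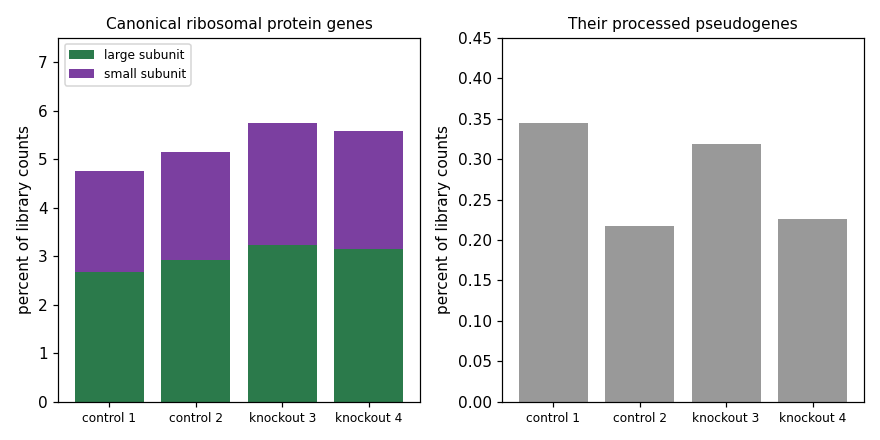
The left panel shows stacked bars of the percent of each library's counts in the 46 large-subunit and 31 small-subunit genes, and the right panel the percent in ribosomal protein processed pseudogenes. The canonical genes range from 4.76% in control 1 to 5.73% in knockout 3, while the pseudogenes are highest in control 1 (0.344%) and knockout 3 (0.319%).

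Nearly all members lay on the same side of 0, and none passed the test alone. The edgeR quasi-likelihood test called 0 of the 90 tested members at a Benjamini-Hochberg adjusted p under 0.05, with adjusted p-values from 0.34 to 0.998, where 0.155% of all 14863 tested genes were called. DESeq2 also called 0 members, and it called 1.58% of all genes higher and 1.26% lower. The log2 fold change was above 0 for 84 of 90 members, where 48.7% of all genes were above 0. The median of the members was 0.27, with the middle 50% between 0.18 and 0.33, and the median of all tested genes was -0.01. At an unadjusted p under 0.05, 17 members were higher (18.9%, against 4.48% of all genes) and 0 were lower (5.17% of all genes). These were 10 large-subunit genes, 6 small-subunit genes and Rps12-ps3. Both libraries labelled knockout lay above both controls for 65 members (72.2%, against 19.5% of all genes) and below both for 2, Rpl24 and Rpl39l (20.8% of all genes). The members share the same 4 libraries, so these counts are not independent of each other.

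**Figure D2:**
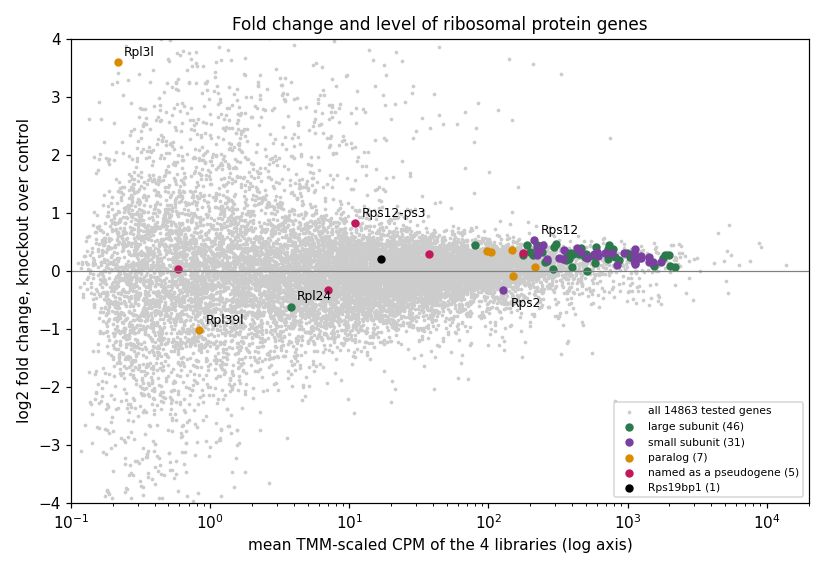
Each point is a gene, with its mean level over the 4 libraries on the x axis (TMM-scaled CPM, log axis) and its log2 fold change on the y axis, in grey for all 14863 tested genes and in colour for the tested members by class. Genes beyond a log2 fold change of 4 on either side are not drawn. Most canonical members form a narrow band above 0 at high levels, and Rps2, Rpl24, Rpl39l and Rpl3l lie away from it.

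The size of the difference rested in part on control library 1. Among the 77 canonical genes, control library 1 was the lowest of the 4 libraries for 69, and library 4 was the highest for 44 and library 3 for 25. Control library 2 lay above control library 1 by a median log2 difference of 0.21, with 69 of 77 genes above 0. Library 3 lay above control library 2 by a median of 0.16 (61 of 77 genes) and library 4 by 0.17 (68 of 77), whereas they lay above control library 1 by 0.35 and 0.41. The difference between the controls was thus larger than the distance from control library 2 to either library labelled knockout. Libraries 3 and 4 differed from each other by a median of 0.05. Without control library 1 the median of the members was 0.18, with 76 of 90 above 0 and 3 higher at an unadjusted p under 0.05, and the median of all genes was 0.04. Without control library 2 the median was 0.37 and 30 were higher at that threshold. It was 0.26 without library 3 and 0.21 without library 4, with 3 members higher at that threshold in each of these fits.

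**Figure D3:**
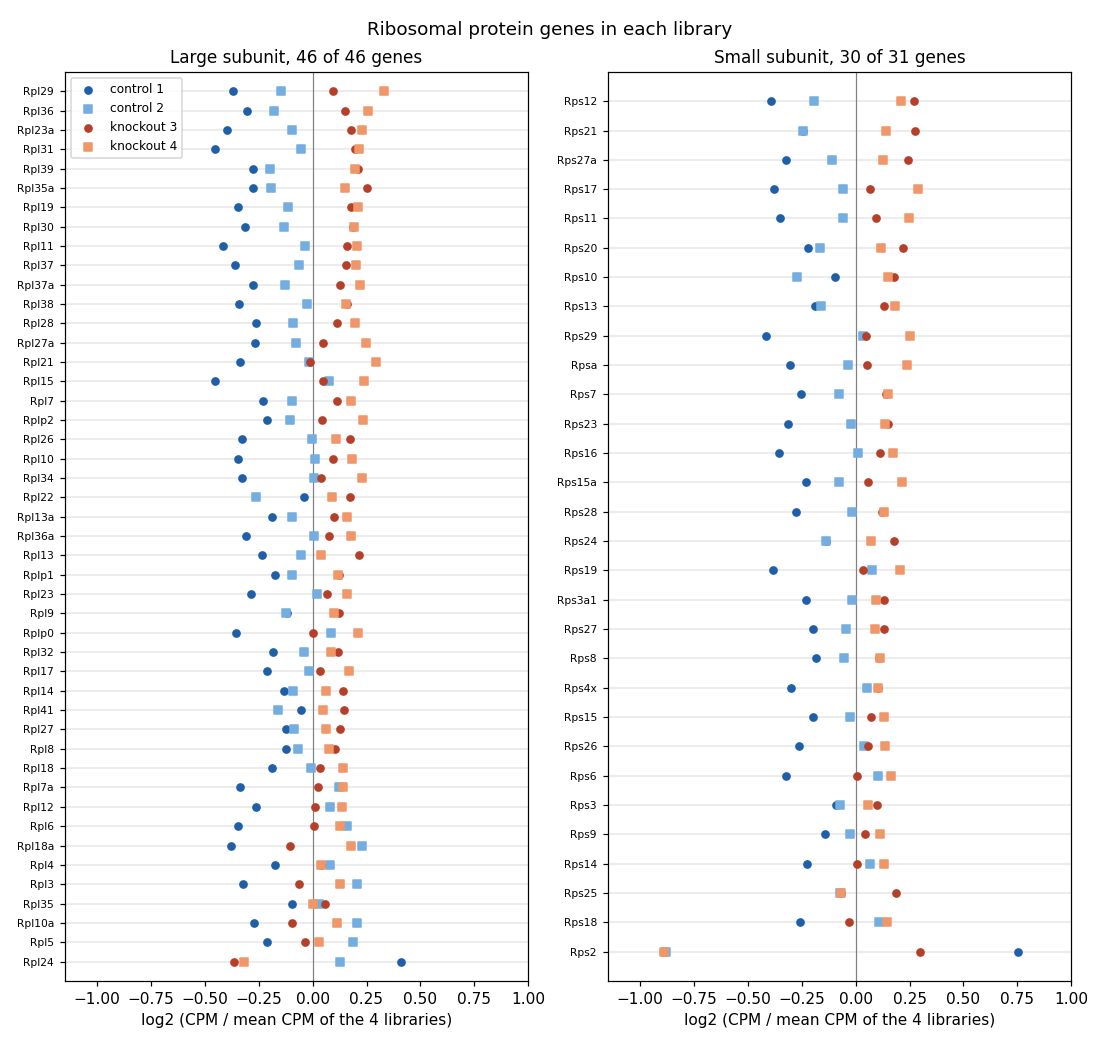
Each row is a canonical gene (76 of the 77 are drawn) and each point a library, placed by log2 of its TMM-scaled CPM over the mean CPM of the 4 libraries, with large-subunit genes on the left and small-subunit genes on the right, sorted by fold change. Control 1 (dark blue) is lowest for 69 of the 77 genes, and Rps2 and Rpl24 depart from the pattern.

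The medians of the subunits lay close together. The 46 large-subunit genes had a median log2 fold change of 0.27, with 44 above 0. Of them 34 lay higher without overlap of the groups (73.9%) and 1 lower. The 31 small-subunit genes had a median of 0.26, with 30 above 0. Of them 24 lay higher without overlap (77.4%) and 0 lower. Among all tested genes 19.5% lay higher and 20.8% lower without overlap. The ratio of summed small-subunit to large-subunit counts over all members was 0.777 and 0.755 in controls and 0.771 and 0.760 in the libraries labelled knockout, where the groups overlapped. Divided by transcript length, the ratio was 0.892 and 0.889 in controls and 0.878 and 0.873 in the libraries labelled knockout, which did not overlap but differed by -0.0155 only. The 4 X-linked canonical genes had a median of 0.28 and the 73 autosomal genes 0.27. These were Rpl10 (0.30), Rpl36a (0.27), Rpl39 (0.44) and Rps4x (0.22), and for each of them the groups did not overlap. Rpl10, which completes the large subunit late in its assembly, was at 355.2 and 454.5 CPM in controls against 481.4 and 512.6 CPM in libraries 3 and 4. Rps4x, of the small subunit, was at 417.1 and 531.8 CPM against 551.2 and 552.1 CPM. All 4 libraries had 0 counts of Xist and counts of Ddx3y, Uty, Eif2s3y and Kdm5d, so they matched each other in sex.

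The highest fold changes among members of at least 10 CPM belonged to Rps12 and its copy, followed by Rpl29, Rps21, Rpl36 and Rpl23a. Rps12, a small-subunit protein gene at 23785183 to 23787275 of chromosome 10 (GRCm38), was at 163.3 and 187.1 CPM in controls against 258.0 and 247.9 CPM in libraries 3 and 4. Its log2 fold change was 0.53 (SE 0.14, adjusted p = 0.34 by edgeR), the lowest adjusted p of any member. Rpl29, a small basic protein of the large subunit, was at 235.5 and 274.8 CPM against 324.3 and 382.2 CPM (log2 fold change 0.47, SE 0.16). Rps21, a small-subunit protein, was at 209.4 and 209.2 CPM against 299.5 and 273.2 CPM (0.45, SE 0.14). For each of these genes the groups did not overlap. Rpl36, of the large subunit, was at 594.8 and 647.3 CPM against 815.1 and 876.8 CPM (0.45, SE 0.13). Rpl23a, which lines the mouth of the peptide exit tunnel, was at 61.3 and 75.4 CPM against 91.3 and 94.6 CPM (0.44, SE 0.18). Their edgeR adjusted p-values were 0.384 and 0.497.

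At the other end, 6 members of at least 10 CPM had log2 fold changes of 0.06 or less. Rpl5, which with RPL11 and the 5S ribosomal RNA binds MDM2, was at 439.4 and 577.7 CPM in controls against 495.8 and 519.4 CPM in libraries 3 and 4 (log2 fold change -0.003, SE 0.17). Its partner Rpl11 was at 345.9 and 450.0 CPM against 514.7 and 531.9 CPM (0.40, SE 0.17, adjusted p = 0.525 by edgeR). The groups overlapped for Rpl5 and not for Rpl11. Rpl10a, a large-subunit protein, was at 242.3 and 337.8 CPM against 273.5 and 316.4 CPM (0.02, SE 0.20). Rpl35, also of the large subunit and near the exit tunnel, was at 374.4 and 407.4 CPM against 416.2 and 400.5 CPM (0.06, SE 0.13). The groups overlapped for both. The other 3 were Rps2, Rps27rt and Rpl7l1, described below. The sign of Rpl5 and of Rpl10a depended on the scaling, with 0.03 for Rpl5 by upper-quartile factors and -0.01 for Rpl10a by library totals.

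Members with roles outside the subunit cores lay within the same range. The stalk proteins, which recruit elongation factors, had log2 fold changes of 0.23 (Rplp0, SE 0.19), 0.25 (Rplp1, SE 0.13) and 0.30 (Rplp2, SE 0.14). Rplp0 was at 818.0 and 1110 CPM in controls against 1050 and 1213 CPM in libraries 3 and 4, where the groups overlapped. Rplp1 was at 500.6 and 528.9 CPM against 615.0 and 612.9 CPM, and Rplp2 at 430.9 and 463.2 CPM against 513.5 and 586.8 CPM, without overlap. Rps6, the substrate of the S6 kinases, was at 882.8 and 1185 CPM against 1110 and 1237 CPM (0.18, SE 0.18), with overlap. Rps19, the gene most often mutated in Diamond-Blackfan anaemia, was at 954.0 and 1311 CPM against 1274 and 1432 CPM (0.26, SE 0.19), with overlap. Rps27a, made as a fusion with ubiquitin, was at 344.8 and 399.0 CPM against 510.0 and 470.6 CPM (0.40, SE 0.14), without overlap. Rpsa, also known as the laminin receptor, was at 629.8 and 759.1 CPM against 806.7 and 919.8 CPM (0.31, SE 0.16), without overlap. The edgeR adjusted p-values of these 7 genes ran from 0.455 for Rps27a to 0.844 for Rps6. Rps19bp1, no ribosomal protein, was at 20.6 and 10.9 CPM against 16.6 and 19.6 CPM (0.20, SE 0.37), and the controls enclosed both other libraries.

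Canonical members differed widely in level even though ribosomes hold most of their proteins in equal numbers. On the scale of CPM per kilobase of transcript, the median was 771.6 over the 77 genes, 558.6 for the large and 821.5 for the small subunit. The most abundant were Rps27 (3627), Rpl32 (3479), Rps14 (2938), Rpl13 (2389) and Rps18 (2022). The least abundant were Rpl12 (205.9), Rpl23a (144.0), Rps2 (127.6), Rps20 (93.5) and Rpl24 (5.62). Rpl32, of the large subunit, was at 1583 and 1747 CPM in controls against 1953 and 1911 CPM in libraries 3 and 4 (log2 fold change 0.21, SE 0.13), without overlap. Rpl13, also of the large subunit, was at 1585 and 1796 CPM against 2159 and 1911 CPM (0.27, SE 0.14), without overlap. Rps14, which lines the platform of the small subunit, was at 1498 and 1835 CPM against 1760 and 1922 CPM (0.14, SE 0.15), with overlap. Of the least abundant, Rps20 was at 297.2 and 309.0 CPM against 403.9 and 376.4 CPM (0.36, SE 0.13), without overlap, and Rpl12 at 213.4 and 270.1 CPM against 257.9 and 281.5 CPM (0.16, SE 0.16), with overlap. The order depends on the length assigned to a gene. With the union of all annotated exons, Rpl32 kept rank 2 and Rps27 took rank 5, while Rps14, Rpl13 and Rps18 moved to ranks 13, 15 and 27. Rpl24 and Rps2 kept ranks 77 and 75, and Rps20, whose shortest CCDS transcript is 3706 bases long, took rank 72. The union for Rps20 is 4080 bases, so both of its ranks rest on a long length. Before division by length, Rps20 averaged 346.6 CPM and Rpl12 (1242 bases) 255.7 CPM, beside a median of 498.6 CPM over the canonical genes. By CPM without a length, 19 of the 77 averaged above 1000 CPM, 2 averaged below 100 CPM, and the 10 most abundant held 32.9% of the canonical total.

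**Figure D4:**
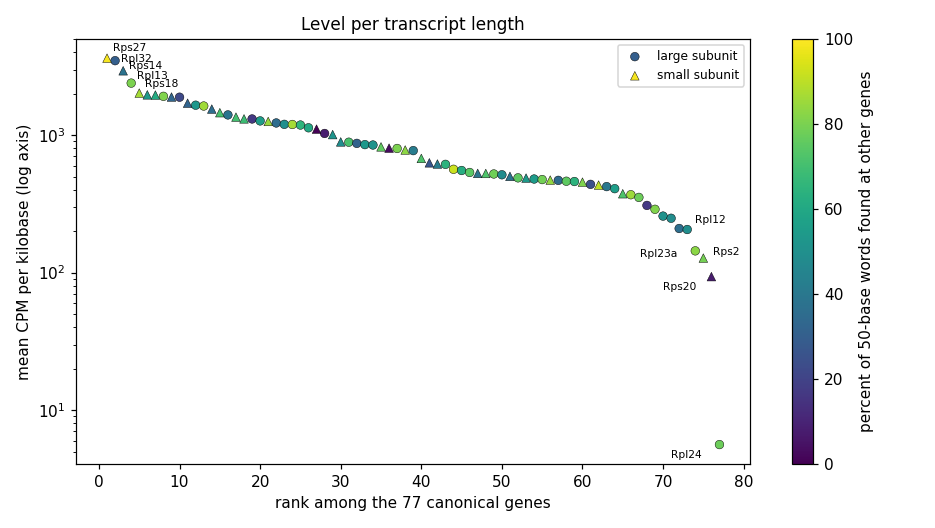
Canonical genes are ranked by mean CPM per kilobase of transcript (y axis, log scale), with circles for the large and triangles for the small subunit and colour for the percent of 50-base words also found at other annotated genes. Levels run from 3627 for Rps27 down to 93.5 for Rps20, with Rpl24 apart at 5.62. The value of Rps20 is divided by a transcript of 3706 bases.

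Much of this family's sequence is not unique, which limits what gene counts can assign. In the canonical genes a median of 55.5% of the 50-base words of the transcript also occurred in annotated transcripts of other genes. The share was at least 50% for 48 of the 77 genes and above 80% for 16. Exons of 39 of the 92 members also overlap exons of another annotated gene, and the strand setting of the counting is not given in the sources used here. How reads of equal sequence were counted was also not given, so levels of members with close copies are uncertain. Across the 77 genes the shared percentage had a Spearman correlation of -0.08 with CPM per kilobase and 0.07 with the log2 fold change. Transcript length had a correlation of -0.39 with the log2 fold change (n = 77), with lower fold changes in longer transcripts. These are descriptions across genes measured in the same 4 libraries.

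Some members are identical to a copy elsewhere over their whole coding sequence. Rps27 and its retrogene Rps27rt share all 252 coding bases and so do Rps12 and Rps12-ps3 over 396 bases, whereas Rps27l differs from Rps27 at 60 of 252 bases. Rpl10-ps3 matches Rpl10 over all 642 bases, and Rpl9-ps6 differs from Rpl9 at 1 of 576. The first 60 coding bases, from GENCODE M21 transcripts on GRCm38, are shown for the copies whose levels are compared below, with coordinates that span an intron for the intron-bearing genes and capitals at each base that differs from the parent gene.
Rps27, chr3:90213248-90213615 (minus strand): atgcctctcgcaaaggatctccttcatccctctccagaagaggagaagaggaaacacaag
Rps27rt, chr9:114982648-114982707 (minus strand): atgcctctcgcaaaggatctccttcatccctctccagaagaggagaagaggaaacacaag
Rps27l, chr9:66946175-66946884 (plus strand): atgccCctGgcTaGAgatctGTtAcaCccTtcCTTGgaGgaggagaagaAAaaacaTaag
Rps12, chr10:23786835-23787007 (minus strand): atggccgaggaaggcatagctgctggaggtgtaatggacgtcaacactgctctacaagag
Rps12-ps3, chr19:59322371-59322430 (plus strand): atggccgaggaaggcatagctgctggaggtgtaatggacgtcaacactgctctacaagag
Rpl36a, chrX:134585717-134586134 (plus strand): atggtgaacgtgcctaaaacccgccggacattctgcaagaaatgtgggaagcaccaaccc
Rpl36al, chr12:69183077-69183136 (minus strand): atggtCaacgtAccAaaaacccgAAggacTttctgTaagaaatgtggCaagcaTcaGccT
Rpl39, chrX:37084032-37085127 (minus strand): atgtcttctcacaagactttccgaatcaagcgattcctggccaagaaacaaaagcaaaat
Rpl39l, chr16:10174310-10174369 (plus strand): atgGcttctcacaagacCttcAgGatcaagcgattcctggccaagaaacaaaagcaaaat
A read inside the identical stretches cannot be assigned to parent or copy by its sequence.

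Rps12-ps3, the intronless copy of Rps12, had the highest log2 fold change of members of at least 10 CPM. It was at 6.92 and 8.996 CPM in controls against 14.1 and 14.1 CPM in libraries 3 and 4 (log2 fold change 0.82, SE 0.32, adjusted p = 0.494 by edgeR). All of its 50-base words occur elsewhere, and its parent was also higher in both libraries labelled knockout. Rpl9-ps6, the near-identical copy of Rpl9, was at 153.8 and 162.9 CPM against 199.1 and 192.8 CPM (0.31, SE 0.14), without overlap. Rpl36a-ps1 (8.86 and 6.84 against 7.68 and 4.75 CPM) and Rpl9-ps1, below 1 CPM in every library, overlapped. Rps27, a zinc-finger protein of the small subunit, was at 1092 and 1212 CPM against 1372 and 1330 CPM (0.23, SE 0.13), without overlap. Rps27rt was at 195.6 and 114.1 CPM against 173.5 and 118.1 CPM (-0.09, SE 0.30), so that control library 1 and library 3 were high and the other pair low. Its share of the sum with Rps27, per length, was 14.2% and 7.99% in controls and 10.5% and 7.58% in the libraries labelled knockout.

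Rps2 and Rpl24 departed most from the other canonical genes. Rps2 (chromosome 17, 24718116 to 24721929), whose protein lies at the entry of the mRNA channel, was at 214.7 CPM in control library 1 and 156.7 CPM in library 3, but at 69.3 CPM in control library 2 and 68.9 CPM in library 4. Its highest library was 3.12 times its lowest, where the median of the canonical genes was 1.37 times and no other exceeded 2. The log2 fold change was -0.33 (SE 0.57, adjusted p = 0.945 by edgeR), and it was 0.70 without control library 1 and -1.08 without control library 2. Of its 50-base words 79.0% occur at 71 other genes. Rpl24 (chromosome 16, 55966275 to 55971435), whose protein lies at the subunit interface, had 293 and 196 counts in controls against 127 and 158 counts in libraries 3 and 4, which is 5.05 and 4.15 CPM against 2.96 and 3.05 CPM. It was the only canonical gene lower in both, with a log2 fold change of -0.62 (SE 0.46, adjusted p = 0.771 by edgeR). On the same strand, 484 of its 1030 exon bases belong also to Gm28037, which had 0 counts in all 4 libraries, and 77.7% of its 50-base words occur at other genes. The part of this overlap in the low count of Rpl24 was not tested.

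**Figure D5:**
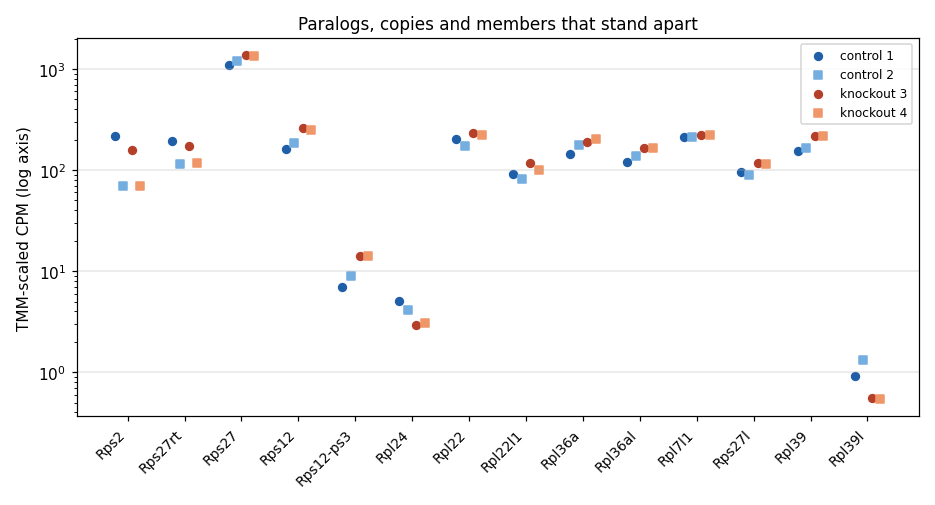
Levels in the 4 libraries (TMM-scaled CPM, log axis) of members that stand apart and of paralog pairs, with circles for control 1 and knockout 3 and squares for control 2 and knockout 4. For Rps2 and Rps27rt the circles lie above the squares in both groups, while for most other genes the red points lie above the blue.

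For 3 of the well expressed paralogs the share of the pair overlapped between the groups. Rpl22l1, the paralog of Rpl22, was at 90.5 and 82.4 CPM in controls against 117.2 and 100.7 CPM in libraries 3 and 4 (log2 fold change 0.33, SE 0.16), beside 202.4 and 173.2 against 234.5 and 221.2 CPM for Rpl22 (0.28, SE 0.15). Per length it made up 28.8% and 30.04% of the pair in controls and 31.1% and 29.1% in the others, with overlap. Rpl36al, an autosomal copy of the X-linked Rpl36a, was at 119.6 and 138.5 CPM against 165.2 and 164.6 CPM (0.35, SE 0.15), beside 143.8 and 178.9 against 187.9 and 201.6 CPM for Rpl36a. It made up 43.3% and 41.5% of that pair against 44.7% and 42.9%, with overlap. Rps27l, a p53 target, was at 96.6 and 89.8 CPM against 117.9 and 114.9 CPM (0.32, SE 0.15), or 5.77% and 4.87% against 5.61% and 5.64% of its sum with Rps27, with overlap. The edgeR adjusted p-values of these 3 paralogs lay between 0.529 and 0.586.

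The share of Rpl7l1 did not overlap between the groups. Rpl7l1 was at 213.9 and 211.3 CPM in controls against 223.1 and 220.5 CPM in libraries 3 and 4 (log2 fold change 0.06, SE 0.13), while Rpl7 was at 844.8 and 928.9 CPM against 1075 and 1121 CPM (0.31, SE 0.13). Its share of the pair per length was 18.4% and 16.8% in controls and 15.6% and 14.9% in the others, without overlap, and the shares of 2 libraries each were not tested. RPL7L1 is known as a factor of large-subunit assembly.

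The paralogs known from muscle and testis were near the limit of detection. Rpl3l, a muscle gene, had 0 and 3 counts in controls against 16 and 22 counts in libraries 3 and 4. Its fitted log2 fold change of 3.61 (SE 1.69, adjusted p = 0.567 by edgeR) rests on these few counts and varied from 2.60 to 7.35 when a library was left out. Its parent Rpl3 was at 1757 and 2533 CPM in controls against 2107 and 2399 CPM in the others (0.07, SE 0.20), with overlap. Rpl39l, known from the testis, was at 0.914 and 1.31 CPM against 0.558 and 0.541 CPM (-1.01, SE 0.88, adjusted p = 0.815 by edgeR). It made up 0.649% and 0.879% of its sum with Rpl39 per length in controls and 0.284% and 0.278% in the others, while Rpl39 was at 155.7 and 164.7 CPM against 218.2 and 215.8 CPM. Rpl10l, a testis gene, had 4 counts in library 3 and 0 in the other libraries, where a count of 0 allows up to 3. These floors cover counting error only.

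Fau and Rack1 encode ribosome-bound proteins outside the name pattern. Fau, which encodes RPS30 fused to a ubiquitin-like protein, was at 453.4 and 544.8 CPM in controls against 614.5 and 723.2 CPM in libraries 3 and 4 (log2 fold change 0.42, SE 0.16, adjusted p = 0.487 by edgeR), without overlap. Rack1, a signalling scaffold on the small subunit, was at 499.2 and 641.9 CPM against 586.7 and 679.8 CPM (0.15, SE 0.17), with overlap. Of 22 other transcripts listed by name as having a TOP tract, mostly of translation factors, edgeR called 0, and their median was 0.13. Their tracts were not examined here. Without overlap 12 of them lay higher (54.5%, against 19.5% of all genes) and 1 lower (20.8% of all genes). Those of smallest p among the 22 were Gas5 (-0.46, SE 0.16), a host of small nucleolar RNAs, and Eif3h (0.37, SE 0.14), a subunit of an initiation factor. Next were Btf3 (0.34, SE 0.14) and Naca (0.29, SE 0.13), whose proteins pair to bind nascent chains. The edgeR adjusted p-values of these 4 genes lay between 0.423 and 0.556. By an unadjusted p under 0.05, 2 of the 22 were higher (9.09%, against 4.48% of all genes) and 1 lower (5.17% of all genes).

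Ribosome biogenesis genes lay close to the background of all genes. Of 49, edgeR called 0, and their median log2 fold change was -0.04, beside -0.01 for all tested genes. The groups did not overlap for 10 higher and 10 lower (20.4% each, against 19.5% and 20.8% of all genes). By an unadjusted p under 0.05, 1 gene was higher (2.04%, against 4.48% of all genes) and 2 genes lower (5.17% of all genes). Heatr1, a processing factor of the small subunit, was at 39.2 and 44.1 CPM in controls against 25.6 and 25.9 CPM in libraries 3 and 4 (-0.69, SE 0.21), and Ltv1, which acts late in small-subunit assembly, was at 31.2 and 33.0 against 58.0 and 39.8 CPM (0.60, SE 0.25). Of 17 genes of RNA polymerase I, which transcribes ribosomal RNA, and its factors, edgeR called 0, the median was -0.23, and 7 were lower without overlap of the groups (20.8% of all genes) and 3 higher (17.6%, against 19.5% of all genes). The subunit genes Polr1b (48.2 and 59.3 CPM against 28.9 and 31.1 CPM, log2 fold change -0.84, SE 0.21) and Polr1a (28.8 and 34.3 CPM against 17.5 and 16.7 CPM, -0.88, SE 0.25) had edgeR adjusted p-values of 0.312 and 0.358. DESeq2 called both lower, with adjusted p-values of 0.0271 and 0.0492, and it called 1.26% of all genes lower. Without a filter on low counts edgeR called Polr1b lower (adjusted p = 0.0471). The unfiltered fit called 264 of 23999 genes lower.

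Regulators of growth and of TOP mRNAs were measured in 12 of 14 listed genes, with 0 called by edgeR and a median of -0.25. Of the 12, 3 were above 0. Without overlap of the groups 1 lay higher (8.33%, against 19.5% of all genes) and 4 lower (20.8% of all genes). At an unadjusted p under 0.05 by edgeR, 0 were higher (4.48% of all genes) and 3 lower (5.17% of all genes). The groups overlapped for Mtor (log2 fold change 0.10, SE 0.32) and Larp1 (-0.27, SE 0.23). Myc, a transcription factor that drives ribosome production, was at 154.2 and 193.1 CPM in controls against 86.2 and 89.8 CPM in libraries 3 and 4 (log2 fold change -0.98, SE 0.17, adjusted p = 0.182 by edgeR). DESeq2 called Myc lower (adjusted p = 0.000227), and it called 1.26% of all genes lower. Without a filter on low counts edgeR also called Myc lower (adjusted p = 6.7e-05). That unfiltered fit called 264 of 23999 genes lower, against 2 of 14863 with the filter. Pdcd4, an inhibitor of the helicase eIF4A, was at 1661 and 2239 CPM against 1237 and 1494 CPM (-0.51, SE 0.19), and Rps6kb1, the S6 kinase gene, at 127.4 and 156.2 CPM against 106.4 and 105.2 CPM (-0.42, SE 0.16). Both had edgeR adjusted p-values above 0.05, at 0.48 and 0.492, and without a filter on low counts Pdcd4 was called lower (adjusted p = 0.0191). Of 78 mitochondrial ribosomal protein genes, 76 were tested and edgeR called 0. Their median was 0.14, with 59 above 0, where 48.7% of all genes were. Without overlap of the groups 24 lay higher (31.6%, against 19.5% of all genes) and 4 lower (20.8% of all genes), and 0 passed an unadjusted p under 0.05 by edgeR or an adjusted p under 0.05 by DESeq2. Mrps7 (0.58, SE 0.24) and Mrpl54 (0.47, SE 0.20) had the smallest p among them.

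The summed markers of some other cell types also lay higher in both libraries labelled knockout, while those of others overlapped between the groups. The 23 markers of monocytes, macrophages and dendritic cells summed to 1110 and 1241 CPM in controls and to 3159 and 3759 CPM in the libraries labelled knockout, and edgeR called 6 of 21 tested higher. Over all 14863 tested genes edgeR called 21 higher. Without overlap of the groups 16 of these markers lay higher (76.2%, against 19.5% of all genes) and 2 lower (20.8% of all genes). The 16 T cell markers summed to 2671 and 2683 CPM against 3226 and 4354 CPM, with 1 of 14 called higher. Without overlap of the groups 9 lay higher (64.3%, against 19.5% of all genes) and 1 lower (20.8% of all genes). Cd3g, at a mean of 1569 CPM over the 4 libraries, made up much of the sum (log2 fold change 0.38). Trac, of the smallest p, was at 7.31 and 5.67 CPM against 85.1 and 200.9 CPM, and Cd3e at 26.5 and 15.1 CPM against 152.5 and 371 CPM. The 8 neutrophil markers summed to 102.6 and 97.6 CPM against 250.2 and 168.1 CPM, of which Mmp9 made up most, while Mpo had 1 count in library 4 and 0 in the others. Only 4 of the 8 neutrophil markers could be tested, and edgeR called 0. The 8 B cell markers (718.4 and 1046 against 652.1 and 804.7 CPM), the 14 hepatocyte markers (199.3 and 129.6 against 192.5 and 206.2 CPM) and the 10 erythroid and platelet markers (452.2 and 312.5 against 271.3 and 953.2 CPM) overlapped. Timd4, Marco and Vsig4, markers of resident macrophages, and Cd5, a T cell marker, had 0 counts in control library 1 and in library 3. All marker lists of other cells held 0.555% and 0.537% of counts in controls and 0.786% and 0.979% in the libraries labelled knockout. With those genes left out of the library totals the members held 4.89% and 5.26% against 5.89% and 5.74%. The part of other cells in the ribosomal protein result was not tested.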

How the data were processed

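The values deposited by the authors were raw counts, whole numbers per gene and library in 1 table. The submitters' processing notes name the mm10 build and, among the tools, bcl2fastq, STAR, featureCounts of Subread, and DESeq2, while the annotation and the strand setting are not given in the sources used here. RNA was column-purified and sequenced from low-input SMARTer libraries, per the labels' protocols. From 40757 lines, 276 repeated lines with identical counts were dropped, and 99 member lines became 92 genes. No per-sample column was left unused.

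Counts were filtered with filterByExpr, scaled by TMM and tested with edgeR 4.0.16 (quasi-likelihood, robust, two-sided, genotype as the only term, 2 residual degrees of freedom) in R 4.3.3, with Benjamini-Hochberg adjustment over 14863 genes and a threshold of 0.05. CPM are TMM-scaled, and the same test was tried on simulated counts. Alternatives were other scalings and filters, DESeq2 1.42.0, limma-voom 3.58.1, thinning, leaving out each library, and a block on the number in the column headers. Lengths are those of the shortest coding CCDS transcript in GENCODE M21, with 50-base words compared between annotated transcripts. All 92 members were in that annotation. Rps4l was not analysed here.

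Members, lists and tests were chosen with earlier results of these data known. Named genes were the 6 highest and 6 lowest fold changes of at least 10 CPM, paralog pairs, the 5 most and 5 least abundant per kilobase, X-linked and stalk genes, Rpsa, Rps6, Rpl5, Rpl11, Rps19, Rps27a, Rps19bp1, and up to 4 genes of each other list by smallest p. Genes beyond it were chosen after their values were seen. Some results of these lists are not reported here.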

Additional observations from a re-analysis of the deposited data

How the results depend on the processing

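Sample titles number the libraries 1 to 4, but the count table's headers number them 1 and 2 within each group, which gives control 1 and library 3 a number in common, and likewise control 2 and library 4. Nothing says what the number marks. Deviations of same-numbered libraries correlated at 0.071 over 14863 genes and at 0.72 over 90 members. Rps2 lay far out in both groups. Its log2 difference was -1.63 from control 1 to control 2 and -1.19 from library 3 to library 4. The medians of the 77 canonical genes were 0.21 and 0.05, and the correlation was not computed without Rps2. With that number as a replicate block, chosen after seeing the data, 44 members were higher at an unadjusted p under 0.05 and 0 were called, Rpl5 was at 0.01, and calls over all genes went from 21 higher and 2 lower to 0 and 0. Members called by an adjusted p under 0.05 stayed at 0 in all 15 alternatives of the fit, and the smallest adjusted p of any member in any of them was 0.0793. The members' median log2 fold change ran from 0.23 with library totals alone to 0.30 with upper-quartile factors, and from 0.18 to 0.37 when a library was left out. The count of members higher at an unadjusted p under 0.05 went from 17 to 35 with upper-quartile factors and ranged from 3 to 30 when a library was left out. The difference in the small to large ratio was -0.0004 without division by length. DESeq2 called 2 RNA polymerase I genes and 1 growth control gene, where edgeR called 0. Without a filter edgeR called Polr1b, Myc, Pdcd4 and Ncr1, and over all 23999 genes it then called 299 higher and 264 lower. Of 1034 values of 69 named genes under the alternatives, 24 had the opposite sign, and 58 genes never did. Rpl10a was at -0.013 with library totals and -0.00079 with the filter of 50 counts in 2 libraries. Rpl5 was at 0.005 with DESeq2 size factors and with DESeq2, 0.028 with upper-quartile factors, 0.016 with limma-voom and 0.004 after thinning. Leaving out a library gave ranges of -0.20 to 0.29 for Rpl10a, -0.003 to 0.34 for Rpl12, -0.17 to 0.36 for Rpl3, -0.19 to 0.21 for Rpl5, -0.049 to 0.32 for Rps18, -0.18 to 0.74 for Rps19bp1, -1.08 to 0.70 for Rps2, -0.42 to 0.35 for Rps27rt, -0.015 to 0.41 for Rps6, -0.13 to 0.60 for Inpp4b and -0.02 to 0.35 for Rack1. The cause was not tested. The lone library of a group is then assumed to vary like the others. Depth limits only the members of few counts, such as Rpl3l, Rpl10l, Rpl39l and Rpl24. The ranks by the union of exons were chosen after seeing the data.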

Other observations

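The processed pseudogenes of the ribosomal proteins, most of them copies without introns, had a median fold change near 0. Of 236 listed, 151 were tested and edgeR called 0, with a median log2 fold change of -0.05. By an unadjusted p under 0.05, 1 gene was higher (0.662%, against 4.48% of all genes) and 1 gene lower (5.17% of all genes). The 236 pseudogenes summed to 3257 and 2235 CPM in controls, against 3145 and 2367 CPM in the libraries labelled knockout. Rpl35a-ps6 was at 47.4 and 67.6 CPM against 96.0 and 91.2 CPM (0.70 on the log2 scale, SE 0.21, adjusted p = 0.388 by edgeR). Rps12-ps9 was at 25.7 and 30.3 CPM against 19.7 and 16.2 CPM (-0.64, SE 0.26, adjusted p = 0.512 by edgeR), opposite in sign to Rps12 and Rps12-ps3.

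Control library 1 and library 3 were both high where control library 2 and library 4 were both low for a set of values that cross the genotypes. The summed pseudogenes, Rps2 and Rps27rt are examples given above. Rpl10-ps3 was at 38.1 and 29.2 CPM in controls, against 47.5 and 34.4 CPM in libraries 3 and 4. Outside the family, Pabpc1, a poly(A)-binding protein gene, was at 682.1 and 347.1 CPM against 587.2 and 362.4 CPM, and Rheb, an activator of mTOR, at 91.6 and 42.4 CPM against 78.6 and 42.5 CPM. These genes were chosen after their values were seen, and the count table's headers give each of these pairs of libraries a shared number without saying what it marks.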
